A study of Rattus norvegicus with 32 samples.

Results

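The 7 GABA-A receptor subunit genes Gabra2, Gabra3, Gabra4, Gabra5, Gabrb1, Gabrb2 and Gabrd were taken by their symbols from the raw count tables of the adult rat hippocampus, where they are 7 of 32883 genes. Each symbol occurred once in the male and once in the female table. All 7 passed the filter on low counts in every comparison. The rows were picked by symbol, but the symbols were chosen with earlier results of these data known.

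RNA-seq was performed on whole-tissue hippocampi of Sprague-Dawley rats at postnatal day 65 (P65), from 16 males sequenced as one batch and 16 females sequenced as another, with 4 rats in each of 4 diet groups per sex. The diet was that of the mother. IS rats came from dams on an iron-sufficient diet, ISch rats from dams that also had extra choline, FID rats from dams on an iron-deficient diet (ID in the column names of the females), and FIDch rats from iron-deficient dams with extra choline (IDCh there). For the males, the study's methods give 4 mg Fe per kg from gestational day 2 to P7 in the deficient diet and 200.0 mg Fe per kg otherwise, and choline at 5.0 in place of 1.1 g per kg from gestational day 11 to 18. All those males were weaned at P21 onto iron-sufficient food, so that FID and FIDch rats were formerly, not currently, deficient. The methods state that each experiment used a single male per litter, but the RNA-seq data came from an earlier study. Whether its males shared litters is not given in the sources used here. The column names of 2 ISch males share a number whose meaning is not given. The series text gives the females the same design without doses, and whether they shared litters is not given in the sources used here. Sex and sequencing batch are the same split and cannot be told apart, so each diet comparison was made within a sex.

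GABA-A receptors are chloride channels opened by GABA, the main inhibitory transmitter of the adult brain. Each is a ring of subunits, usually alpha and beta subunits with a gamma or a delta subunit, and the mix sets where the receptor sits and which drugs it answers to. Many receptors with a gamma subunit gather at synapses and carry brief inhibition. Receptors with the delta subunit lie outside synapses, sense ambient GABA and carry a tonic current. Alpha4 is the usual partner of delta in dentate granule cells. In the hippocampus alpha5 is known for tonic inhibition of pyramidal cell dendrites, and alpha2 for synapses on pyramidal cells, including those on the axon initial segment.

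Total counts per library ran from 3515806 to 9517503 in the males (median 8007907) and from 18439999 to 26616318 in the females. The shallowest male library, FIDch replicate 2, held the lowest raw count of any of the 7 genes, 72 for Gabrd. Values below are normalised read counts, in CPM, counts scaled to a common library total with TMM factors over the libraries of 1 sex, and every mean is over 4 rats with its SD. Levels are compared between groups for 1 gene, never between genes, because no gene lengths were applied. Markers of the hippocampal fields were present in every library, with summed levels of 174 to 305 CPM for 4 dentate granule cell genes, 483 to 1052 CPM for 3 CA1 genes and 247 to 347 CPM for 5 CA2 and CA3 genes. Choroid plexus genes summed to 389 CPM in male FID replicate 4 against 3.77 to 18.6 CPM in every other library.

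Across diets the 2 clearest movements were in opposite sexes. In males, Gabrb2, Gabra4 and Gabra5 were lower in FIDch than in FID rats. In females, Gabra4 and Gabrd were higher in ISch than in IS rats and Gabra5 was lower. A gene is counted as changed below where its absolute log2 fold change was over 0.2 with an unadjusted p under 0.05 in edgeR's quasi-likelihood test, the study's own cutoffs, and the Benjamini-Hochberg adjusted p over all genes tested stands beside it. By that criterion 3 of the 7 genes fell in male FIDch against FID, where 13.0% of 13945 genes met it in either direction, and 1 of the 3 had an adjusted p under 0.05. For 4 of the 7 the FIDch and FID males did not overlap, as for 10.8% of all genes. The median log2 fold change of the 7 was -0.23, against -0.0003 over all genes tested. In female ISch against IS 2 rose and 1 fell, where 10.3% of 14466 genes met the criterion, and 3 of the 7 did not overlap (10.1% of all genes), with a median of -0.065 against -0.0037 over all genes.

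The other comparisons held fewer calls. Male FID against IS had 1 of 7 (4.62% of all genes), female FID against IS 1 (6.47%), female FIDch against IS 1 (8.98%, with 2 of 7 not overlapping against 7.80%) and female FIDch against FID 2 (12.7%). In male FIDch against IS and male ISch against IS the count was 0 with edgeR's test and 0 with DESeq2, where 6.12% and 8.06% of all genes met the criterion. Before adjustment 2 of the 7 were under 0.05 in male FIDch against IS (7.89% of all genes) and 0 in male ISch against IS (10.5%). An adjusted p under 0.05 was reached by 1 gene in male FIDch against FID (1.28% of all genes) and 2 in female ISch against IS (2.54%). In the other pairs it was reached by 0 of the 7 with edgeR, against 0.00%, 0.131% and 0.208% of all genes in male FID, FIDch and ISch against IS, 0.191% and 0.907% in female FID and FIDch against IS, and 2.28% in female FIDch against FID. Unadjusted, 1 gene was under 0.05 in male and in female FID against IS (5.68% and 11.2% of all genes), and 2 were in female FIDch against IS (12.9%), and in female FIDch against FID the genes under it were those already called. FID, FIDch and ISch were each set against the same 4 IS rats of their sex, and FIDch and FID enter more than 1 comparison, so these comparisons share libraries.

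**Figure D1:**
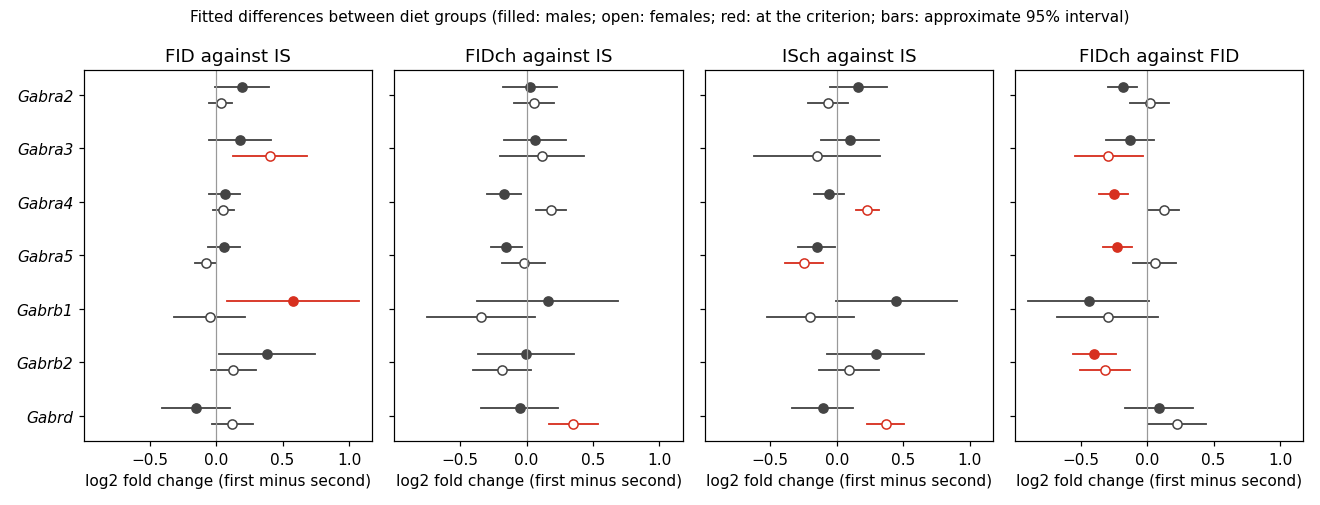
Fitted log2 fold changes (x axis, first group minus second) of the 7 subunit genes (rows) in 4 diet comparisons, with filled points for males, open points for females, bars for the approximate 95% interval and red for genes that met the criterion. In males the red points are Gabrb1 in FID against IS and Gabra4, Gabra5 and Gabrb2, all below 0, in FIDch against FID, and in females Gabra4 and Gabrd lie above 0 in ISch against IS.

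Among the alpha subunits, Gabra4 (ENSRNOG00000002336) was lower in male FIDch than FID rats and higher in female ISch than IS rats. Male FIDch rats measured 145, 154, 163 and 144 CPM in replicates 1 to 4, and male FID rats 183, 181, 173 and 181 CPM. Every FIDch male was below every FID male. The means were 152 ± 8.79 and 179 ± 4.73 CPM, a ratio of 0.845 and a log2 fold change of -0.25 ± 0.057 (SE) (adjusted p = 0.0508). The exact permutation test over the 70 splits of 4 against 4 gave its smallest possible p, 0.029. In bulk tissue, fewer cells that express a gene and less of its RNA per cell cannot be told apart.

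Male IS rats measured 159.8, 172, 182 and 171 CPM and male ISch rats 158, 161, 168 and 171 CPM, so that the order of the male means was FID, IS, ISch and FIDch and each neighbouring pair overlapped. Against IS the male FIDch difference in Gabra4 was -0.17 ± 0.065 (adjusted p = 0.522), under the fold cutoff, with an exact permutation p of 0.057. It passed that cutoff without male IS replicate 1 (-0.20) and without male FIDch replicate 3 (-0.22).

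In females the Gabra4 order differed. ISch rats measured 176, 195, 189 and 192 CPM, FIDch rats 171, 187, 169.6 and 199 CPM, FID rats 169, 162, 161 and 174 CPM and IS rats 158, 166, 156 and 161 CPM. Neither group with choline overlapped IS, while FIDch overlapped FID and ISch. ISch rats averaged 188 ± 8.65 CPM against 160.3 ± 4.34 in IS, a log2 fold change of 0.23 ± 0.044 (adjusted p = 0.0240). FIDch against IS gave 0.18 ± 0.058 (adjusted p = 0.216), just under the fold cutoff, which it passed without female FIDch replicate 1 (0.21) or replicate 3 (0.21). The exact permutation p was 0.029 for both contrasts with IS. Against FID the female FIDch difference was 0.12 ± 0.060, with an approximate 95% interval of 0.0060 to 0.24, and was not called.

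Gabrd (ENSRNOG00000016385) encodes delta, a subunit that takes the place of gamma in some receptors outside the synapse. Female ISch rats measured 32.9, 39.8, 33.7 and 38.6 CPM, and female FIDch rats 32.8, 34.9, 31.8 and 43.7 CPM. Female IS rats measured 26.98, 27.3, 29.4 and 28.6 CPM and FID rats 30.8, 26.04, 30.2 and 34.9 CPM. All 8 females with choline lay above all 4 IS females, and FID overlapped both FIDch and ISch as well as IS. The ISch mean of 36.3 ± 3.48 CPM was 1.29 times the IS mean of 28.1 ± 1.13 CPM (log2 fold change 0.37 ± 0.070, adjusted p = 0.0240). FIDch, at 35.8 ± 5.41 CPM, was 1.28 times IS (log2 fold change 0.35 ± 0.094, adjusted p = 0.147). Both had an exact permutation p of 0.029.

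FIDch against FID in female Gabrd gave 0.22 ± 0.11 (adjusted p = 0.320), not called. It met the criterion by library size alone, with no filter on low counts, with 4 groups in one fit and with the replicate block (0.22 to 0.25). Called as well, without female FID replicate 4 it was 0.30 and without female FIDch replicate 3 0.28. Without female FIDch replicate 4 it was 0.12. Male Gabrd did not separate by diet. The males measured 32.5, 25.3, 28.01 and 37.4 CPM in IS, 27.2, 26.9, 28.4 and 31.9 CPM in ISch, 29.4, 31.7, 27.1 and 23.2 CPM in FID and 30.7, 20.3, 32.4 and 33.1 CPM in FIDch. All 4 male ranges overlapped, no male contrast was called, and the lowest value came from the shallowest library. The approximate 95% interval for male ISch against IS ran from -0.34 to 0.12.

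The difference between the sexes was tested in a model of both sexes. For ISch against IS the effect on Gabra4 was larger in females than in males by a log2 of 0.28 ± 0.068, adjusted p = 0.0503, and that on Gabrd by 0.47 ± 0.14, adjusted p = 0.103. For FIDch against IS the differences were 0.36 ± 0.088, adjusted p = 0.0756, for Gabra4 and 0.41 ± 0.19, adjusted p = 0.346, for Gabrd. These 2 of the 7 genes met the criterion in both contrasts, where 14.2% and 12.9% of all genes did, and 0 passed an adjusted p of 0.05 (1.28% and 0.362% of all genes). In FID against IS 0 of 7 differed by edgeR's test and 0 by DESeq2 (7.64% of all genes). There Gabra5 alone was under 0.05 before adjustment, at a difference of -0.16 ± 0.073, adjusted p = 0.594, and under the fold cutoff. Leaving out single libraries ended the call for Gabrd in FIDch against IS in 9 of 16 cases, with values of 0.29 without female FIDch replicate 4, 0.30 without male FIDch replicate 2, 0.30 without male IS replicate 4, 0.36 without male IS replicate 1, and 0.39 to 0.42 without male FIDch replicate 1, female FIDch replicate 2 or female IS replicate 1, 2 or 4, each with an unadjusted p over the cutoff.

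**Figure D2:**
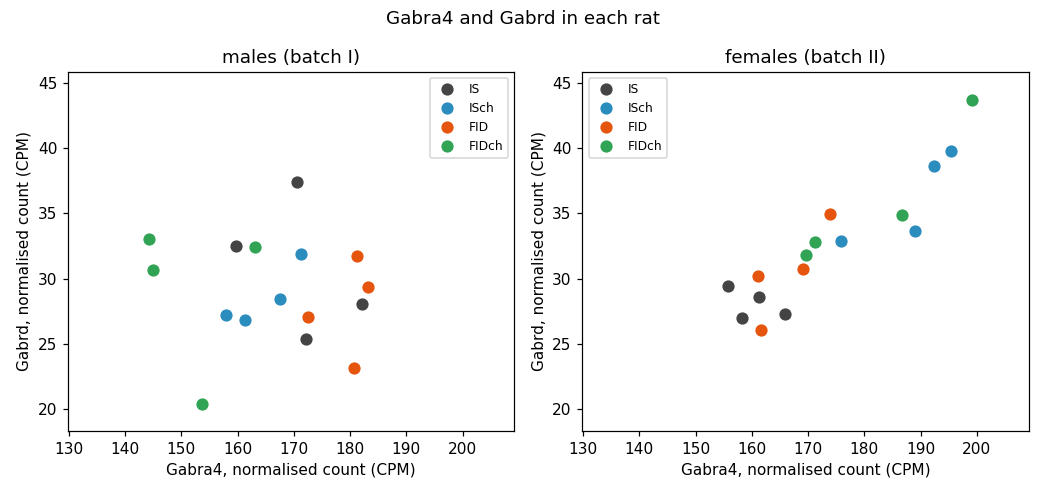
Normalised counts (CPM) of Gabra4 (x axis) against Gabrd (y axis), 1 point per rat coloured by diet, males left and females right on the same scales. The 16 females lie along a rising line (Pearson r 0.91) with IS at the lower left and most ISch rats at the upper right, and the males show no such line (r -0.06).

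Gabra4 and Gabrd also moved together from rat to rat. Over the 16 females Pearson's r was 0.91 and Spearman's rho 0.91, each with p = 1e-05, the smallest the permutations can give, and adjusted p = 0.00042 over the 42 gene pairs tested in both sexes. Without the 2 females farthest from the median of Gabra4 r was 0.85, and after subtracting the group means it was 0.80, so the relation was also present within diets. Over the 16 males r was -0.06 and rho -0.17 (permutation p = 0.819 and 0.52). Other genes tracked each subunit about as closely in the females. On log2 CPM the closest of 11514 genes reached r of 0.90 with Gabra4 and 0.91 with Gabrd. How often pairs of other genes reach such an r was not tested.

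Markers of dentate granule cells, the neurons in which alpha4 and delta are known to pair, moved with the same female groups. The summed level of Prox1, C1ql2, Dsp and Lct was 185 to 217 CPM in IS and 195 to 218 CPM in FID females, against 267 to 305 CPM in ISch and 242 to 285 CPM in FIDch. The groups with and without choline did not overlap in this sum. Of the 4 markers 3 were tested and all 3 were called higher in both ISch and FIDch against IS, with log2 fold changes of 0.39 ± 0.074 for Prox1, 0.51 ± 0.077 for C1ql2 and 2.87 ± 0.17 for Dsp in ISch. Lct was at 0 to 8 raw counts in the females. Other markers moved with these groups as well. The microglia sum was 199.8 to 211 CPM in IS against 168 to 196 CPM in ISch and 174 to 186 CPM in FIDch females, with Cx3cr1 called lower in both and P2ry12 in ISch. The astrocyte gene Aldh1l1 was called higher in both (0.36 ± 0.066 in ISch and 0.28 ± 0.072 in FIDch), and 2 rows of the red blood cell gene Hba-a2 in ISch (0.50 ± 0.22 and 0.52 ± 0.23). Of the 4 tested CA2 and CA3 markers 1 was called lower in female ISch and 1 in female FIDch against IS. In males the dentate sums of the 4 groups overlapped, from 174 to 227 CPM in all. Of the 3 dentate markers tested in males 1 was called lower in ISch against IS (median log2 fold change of the 3 -0.23). In the male iron by choline interaction 1 was called higher (median 0.31). The part of these markers in the Gabra4 and Gabrd values was not tested.

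**Figure D3:**
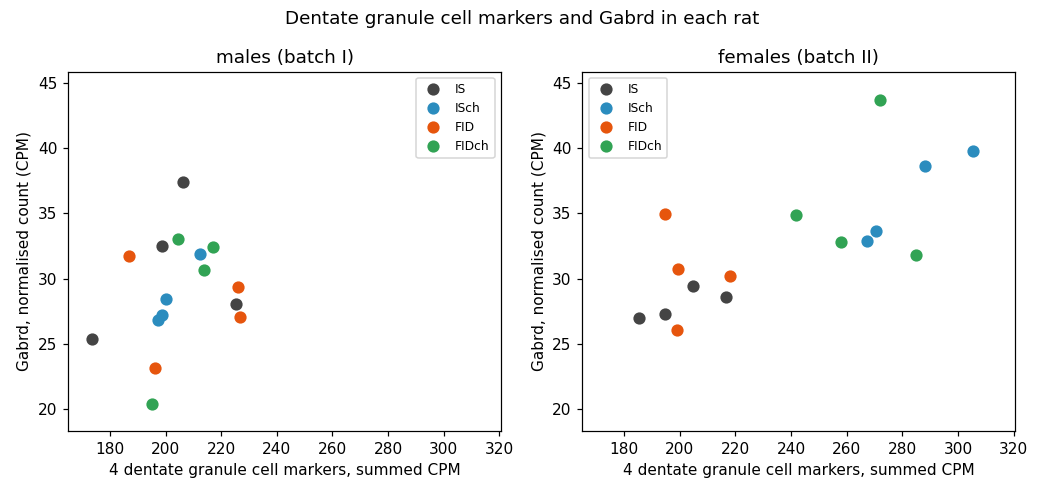
Summed normalised count of 4 dentate granule cell markers (x axis, CPM) against Gabrd (y axis, CPM), 1 point per rat coloured by diet, males left and females right. The females with choline lie at 242 to 305 CPM of the markers and those without at 185 to 218, while all males lie at 174 to 227.

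The promoters of these genes are shown because Gabra4 and Gabrd moved together in the females. Each is the 250 bases before the annotated start site in RefSeq (assembly GRCr8), 5′ to 3′ on the gene's strand, at chr14:36944497-36944746 (plus strand) and chr5:171252710-171252959 (minus strand). Capitals mark the GC box, the letters GGGCGG searched on both strands.
Gabra4: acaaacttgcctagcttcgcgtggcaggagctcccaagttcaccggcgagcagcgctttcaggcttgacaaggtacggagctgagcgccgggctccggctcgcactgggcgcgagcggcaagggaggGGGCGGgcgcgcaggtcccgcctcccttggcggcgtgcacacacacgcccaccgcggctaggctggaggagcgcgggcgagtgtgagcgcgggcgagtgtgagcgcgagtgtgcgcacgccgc
Gabrd: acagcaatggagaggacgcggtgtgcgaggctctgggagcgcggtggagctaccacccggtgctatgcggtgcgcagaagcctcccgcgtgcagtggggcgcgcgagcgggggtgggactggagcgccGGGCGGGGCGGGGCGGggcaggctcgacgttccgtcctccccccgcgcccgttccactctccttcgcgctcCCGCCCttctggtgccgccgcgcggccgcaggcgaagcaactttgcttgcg
Gabra4 held 1 GC box, from 123 to 118 bases before the start. Gabrd held 4, of which the first 3 overlap by a base each between 122 and 107 bases before the start and the fourth, on the other strand, lies 51 to 46 bases before it. The letters occur in 30.5% of 33469 rat promoters of this length. Both windows were rich in G and C, with 71.6% and 74.00% against a median of 51.2% over all promoters. Such matches describe the letters and do not show a bound site.

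Gabra5 (ENSRNOG00000010803), the alpha subunit of dendritic tonic receptors, was lower in male FIDch than FID rats and lower in female ISch than IS rats. Male FIDch rats measured 247, 227, 236 and 238 CPM and male FID rats 257, 286, 274 and 285 CPM, without overlap. The log2 fold change was -0.23 ± 0.055 (adjusted p = 0.0706), a ratio of 0.860, and the exact permutation p was 0.029. Male IS rats, at 263, 276, 245 and 271 CPM, overlapped FID, and male ISch rats, at 221, 215, 252 and 261 CPM, overlapped IS, FID and FIDch. Against IS, FIDch gave -0.15 ± 0.059 (adjusted p = 0.554) and ISch -0.15 ± 0.071 (adjusted p = 0.476), both under the fold cutoff. Without male ISch replicate 4 the latter was -0.20, and called.

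Female ISch rats measured 205, 237, 215 and 177 CPM for Gabra5 and female IS rats 254, 253, 239.7 and 242 CPM. The highest ISch rat was below the lowest IS rat. The means were 209 ± 25.1 and 247 ± 7.09 CPM, a log2 fold change of -0.25 ± 0.074 (adjusted p = 0.120) with an exact permutation p of 0.029. Without female ISch replicate 4 it was -0.17, under the fold cutoff. Female FID rats, at 229, 221, 246 and 239.6 CPM, and FIDch rats, at 255, 273, 246 and 199.6 CPM, overlapped IS, and FIDch replicate 4 was the lowest of its group. In ISch females Gabra5 and Gabra4 stood on opposite sides of IS. Over the 16 females their correlation was -0.48 (permutation p = 0.0575, adjusted p = 0.136).

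**Figure D4:**
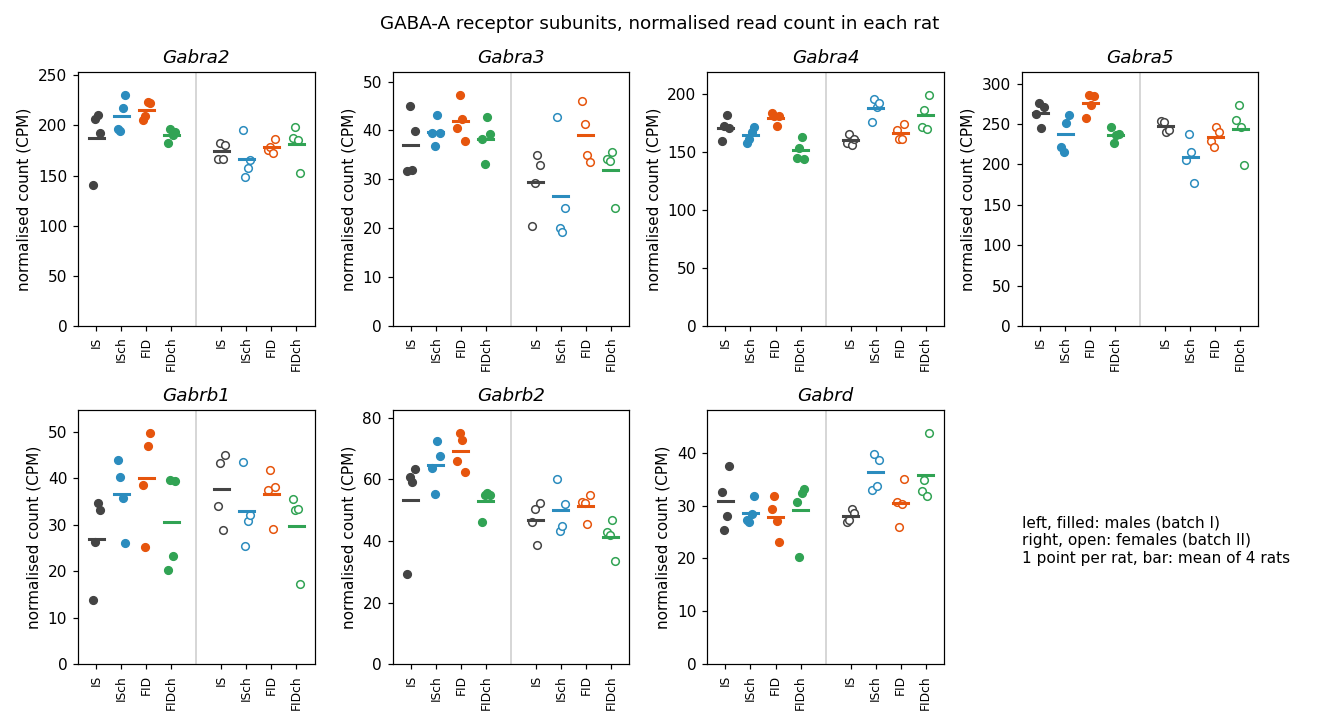
Normalised count (y axis, CPM) of each subunit gene in each of 32 rats, by diet group (x axis), with males filled on the left, females open on the right and a bar at the mean of 4 rats. Male FIDch points of Gabra4, Gabra5 and Gabrb2 lie below all male FID points, and female ISch and FIDch points of Gabra4 and Gabrd above all female IS points.

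Gabra2 (ENSRNOG00000002349), the alpha subunit of synapses on pyramidal cells, separated the same male groups by a smaller step. Male FIDch rats measured 182, 196, 190.0 and 194 CPM and FID rats 205, 209.6, 223 and 222 CPM. These ranges did not overlap, and the log2 fold change of -0.18 ± 0.054 (adjusted p = 0.113) fell short of the fold cutoff, with an exact permutation p of 0.029. It passed the cutoff without male FID replicate 1 (-0.21). Male IS rats measured 141, 206, 211 and 192 CPM and ISch rats 196, 195, 217 and 230.3 CPM, and IS replicate 1 was the lowest of the 16 males. FID against IS gave 0.20 ± 0.10 (adjusted p = 0.786), not called. It was called without male IS replicate 3 (0.26), with no filter on low counts (0.20) and with the replicate block (0.21), and it was 0.082 without male IS replicate 1. In females the group means ran from 167 ± 20.4 CPM in ISch to 181 ± 19.9 CPM in FIDch, all 4 ranges overlapped and no contrast was called.

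Gabra3 (ENSRNOG00000056558), an alpha subunit with a low share in the hippocampus and a high one in some other forebrain nuclei, was called, with all libraries, only in females. FID females measured 46.05, 41.4, 35.02 and 33.5 CPM and IS females 20.4, 29.2, 35.04 and 32.9 CPM. The upper 2 FID rats were above all IS rats and the other 2 were within their range. The log2 fold change was 0.40 ± 0.14 (adjusted p = 0.307), with an exact permutation p of 0.086, and the call ended without female FID replicate 1 (0.31) and with 4 groups in one fit (0.41). It was 0.27 without female IS replicate 1, still called.

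FIDch females, at 34.1, 33.8, 35.7 and 24.1 CPM, were lower than FID in Gabra3 by 0.29 ± 0.13 on the log2 scale (adjusted p = 0.272), with overlapping ranges and an exact permutation p of 0.2. That call was lost without FIDch replicate 4 (-0.18), FID replicate 1 (-0.20), FID replicate 2 (-0.26), FIDch replicate 1 (-0.33) or FIDch replicate 2 (-0.32), and by library size alone (-0.27) and with 4 groups in one fit (-0.29). ISch females were widely spread, at 42.7, 20.02, 19.1 and 24.1 CPM, and replicate 1 lay far above the other 3. Without it ISch against IS went from -0.15 ± 0.24 to -0.48, and was called. In the column names ISch replicate 1 is numbered apart from the other 3, as FIDch replicate 4 is in its group. Male Gabra3 means ran from 37.1 ± 6.46 CPM in IS to 41.99 ± 3.94 CPM in FID, with all ranges overlapping. The male FID against IS difference was called without male IS replicate 2 (0.28).

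Slc17a6, a glutamate transporter gene set as a thalamus marker, moved beside female Gabra3, at 20.8 to 27.7 CPM in FID, 12.4 to 21.8 CPM in IS and 13.2 to 18.4 CPM in FIDch (log2 fold changes of 0.70 ± 0.16 and -0.71 ± 0.12 for FID against IS and FIDch against FID). The 4 thalamus markers summed to 42.2 to 49.7 CPM in FID, 30.6 to 41.4 CPM in IS and 29.5 to 37.9 CPM in FIDch females. In FID against IS Slc17a6 was the 1 gene of the 4 called, and Tcf7l2 was at -0.07 ± 0.11. In FIDch against FID Prkcd was called too (-0.34 ± 0.14). Of 6 striatum markers 1 was called higher in female FID against IS and 2 lower in FIDch against FID. Drd1 of that list was at 6.74 to 8.46 CPM in FID, 3.44 to 5.64 CPM in IS and 4.92 to 6.44 CPM in FIDch. The striatum sums of these groups overlapped, at 80.7 to 94.5, 85.6 to 90.5 and 84.6 to 98.2 CPM. The part of the thalamus and striatum markers in the Gabra3 values was not tested.

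Of the beta subunits, which form the GABA site together with alpha, Gabrb2 (ENSRNOG00000003680) was lower in FIDch than FID rats of both sexes. Male FIDch rats measured 46.2, 54.8, 55.5 and 54.97 CPM and male FID rats 66.1, 74.98, 72.8 and 62.4 CPM, without overlap. The means of 52.9 ± 4.45 and 69.1 ± 5.83 CPM gave a ratio of 0.765 and a log2 fold change of -0.40 ± 0.082 (adjusted p = 0.0392), with an exact permutation p of 0.029. Gabrb2, Gabra4 and Gabra5 stayed called whichever of the 8 males was left out. Female FIDch rats measured 42.98, 41.99, 46.9 and 33.6 CPM and female FID rats 52.5, 52.3, 45.4 and 54.9 CPM, which overlapped by the highest FIDch and the lowest FID rat. The female log2 fold change was -0.31 ± 0.10 (adjusted p = 0.119), with an exact permutation p of 0.057.

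Male IS rats measured 29.3, 60.9, 59.2 and 63.2 CPM for Gabrb2 and male ISch rats 63.6, 55.4, 72.5 and 67.5 CPM. IS replicate 1 was far below the other 3. With it, male FID against IS was 0.38 ± 0.18 (adjusted p = 0.786) and not called. It was called without IS replicate 2 (0.45), IS replicate 3 (0.44) or IS replicate 4 (0.47). It was also called with DESeq2, a likelihood ratio test, no filter on low counts, 4 groups in one fit and the replicate block (0.38 to 0.42), while without IS replicate 1 it was 0.18, under the fold cutoff. FIDch against IS was -0.0016 ± 0.18 with all 8 males and -0.21 without IS replicate 1. Female IS rats measured 46.3, 50.4, 38.7 and 52.2 CPM and female ISch rats 60.01, 43.1, 44.96 and 52.2 CPM, and these overlapped each other and FID. Female FIDch against IS was -0.18 ± 0.11 (adjusted p = 0.525), called only without female IS replicate 3 (-0.26).

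Gabrb1 (ENSRNOG00000002327), the other beta subunit of the set, varied widely within groups, with coefficients of variation of 14.8% to 35.4%. Male IS rats measured 13.8, 26.2, 34.7 and 33.2 CPM and male FID rats 38.5, 25.3, 46.9 and 49.7 CPM. Their ranges overlapped, and replicate 1 was again the lowest IS rat. FID against IS was called at 0.58 ± 0.25 (adjusted p = 0.786), with an exact permutation p of 0.14. The unadjusted p of that call rose over the cutoff without IS replicate 1 (0.35), IS replicate 2 (0.56), FID replicate 1 (0.60), FID replicate 3 (0.49) or FID replicate 4 (0.46), and with DESeq2 (0.57).

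Male ISch rats measured 43.99, 40.3, 35.8 and 26.03 CPM for Gabrb1 and male FIDch rats 20.3, 39.6, 23.2 and 39.5 CPM, and FIDch split into a lower and an upper pair. ISch against IS was 0.45 ± 0.23 (adjusted p = 0.527), called without IS replicate 3 (0.60), IS replicate 4 (0.56) or ISch replicate 4 (0.58). It was also called with no filter on low counts (0.45), and was 0.21 without IS replicate 1. FIDch against FID was -0.44 ± 0.23 (adjusted p = 0.346), called without FID replicate 2 (-0.62), FIDch replicate 2 (-0.56) or FIDch replicate 4 (-0.61). It was also called with no filter on low counts (-0.44), and was -0.27 without FIDch replicate 1. Female means of Gabrb1 ran from 29.8 ± 8.48 CPM in FIDch to 37.8 ± 7.67 CPM in IS with overlapping ranges, and FIDch replicate 4, at 17.2 CPM, was far below the other 3. No female contrast of Gabrb1 was called with all libraries, and ISch against IS was -0.36 without ISch replicate 1.

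Gabrb1 and Gabrb2 varied together over the 16 females (Pearson's r 0.85, rho 0.78, permutation p = 8e-05 and 0.00076, adjusted p = 0.00112 and 0.016), with r of 0.74 without the 2 farthest rats and 0.92 within diets. In males r was 0.65 but -0.05 without the 2 rats farthest in Gabrb1, so that relation rests on those rats. The tightest male pair was Gabra2 with Gabrb2 (r 0.92, rho 0.73, permutation p = 5e-05 and 0.0021, adjusted p = 0.00105 and 0.0294), at 0.77 without the 2 farthest and 0.88 within diets. In females Gabra2 went with Gabrb1 (r 0.72, adjusted p = 0.0118, rho 0.68, adjusted p = 0.0409), at 0.52 without the 2 farthest rats and 0.90 within diets. Such close movement was not limited to pairs of subunits. On log2 CPM the closest of 11514 genes in females reached r of 0.98 with Gabrb1, 0.92 with Gabrb2 and 0.92 with Gabra2. In males the closest of 10279 reached 0.96 with Gabra2 and 0.96 with Gabrb2. A background of other gene pairs was not tested.

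The promoters of both beta genes are shown because both genes moved together in the females and both windows held the binding letters of NRF1, a factor for genes of respiration, which none of the other 4 promoters matched did. The windows are as above, at chr14:36902894-36903143 (minus strand) and chr10:27439543-27439792 (plus strand), and capitals mark these 10 letters, which read the same on both strands.
Gabrb1: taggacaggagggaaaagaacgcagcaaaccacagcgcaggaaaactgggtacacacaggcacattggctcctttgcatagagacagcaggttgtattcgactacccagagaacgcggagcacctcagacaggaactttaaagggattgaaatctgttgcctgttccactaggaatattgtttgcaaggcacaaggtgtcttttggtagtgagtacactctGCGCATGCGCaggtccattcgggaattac
Gabrb2: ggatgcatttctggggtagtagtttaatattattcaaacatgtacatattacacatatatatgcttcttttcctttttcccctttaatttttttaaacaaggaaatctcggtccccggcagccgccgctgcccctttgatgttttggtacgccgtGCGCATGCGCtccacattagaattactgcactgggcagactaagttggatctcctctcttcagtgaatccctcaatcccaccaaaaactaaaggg
The match lies 29 to 20 bases before the start of Gabrb1 and 95 to 86 before that of Gabrb2. Of all 33469 promoters of this length 0.762% hold it. As above, the letters do not show a bound site, and whether the match bears on the shared movement was not tested. The G and C content was 49.2% and 43.2%. Also searched on both strands were GCGTGGGCG and GCGGGGGCG (0.478% and 2.45% of all promoters), TGACGTCA (1.59%), CACGTG (5.59%) and TATAAA (12.9%). Of these only TATAAA was found, once, in Gabra3 on the other strand 194 to 189 bases before the start, and Gabra5 held 1 GC box. No promoter was matched for Gabra2. In the same annotation Gabrb1 lies beside Gabra4 and Gabra2 beside Gabrg1, all on 1 chromosome with Cox7b2 between Gabra4 and Gabra2, and Gabrb2 lies beside Gabra6. Gabra3, Gabrb1 and Gabrb2 overlap other annotated RNAs, and whether reads were counted by strand is not given in the sources used here, so reads of those RNAs could not be told from theirs.

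The 2 by 2 design also asks whether choline acted differently in iron-deficient and iron-sufficient rats, as (FIDch minus FID) minus (ISch minus IS). In males 3 of 7 genes met the criterion, all negative (14.4% of all genes in either direction), and 0 had an adjusted p under 0.05 (0.00699% of all genes), with 4 under it unadjusted (15.4%). Gabrb2 gave -0.68 ± 0.23 (adjusted p = 0.204), Gabra2 -0.34 ± 0.13 (adjusted p = 0.244) and Gabrb1 -0.88 ± 0.37 (adjusted p = 0.274). For each of them the male mean was higher in ISch than in IS and lower in FIDch than in FID. Gabra4, at -0.19 ± 0.077 (adjusted p = 0.260), was under the fold cutoff, and 1 male left out could carry it past, as without FIDch replicate 3 (-0.23), ISch replicate 1 (-0.22), IS replicate 3 (-0.22) or FID replicate 3 (-0.21). Gabra3 was called without IS replicate 2 (-0.33).

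The Gabrb1 interaction was lost with DESeq2 (-0.83). It was also lost without IS replicate 1 (-0.65), ISch replicate 1 (-0.78), ISch replicate 2 (-0.82), FID replicate 3 (-0.79), FID replicate 4 (-0.75), FIDch replicate 1 (-0.71) or FIDch replicate 3 (-0.75). Those for Gabrb2 and Gabra2 stayed at the criterion in all 16 fits that left out 1 male, but were smaller without IS replicate 1, at -0.47 and -0.22.

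In females 2 of 7 met the criterion in opposite directions (7.33% of all genes), and 0 had an adjusted p under 0.05 (0.00668% of all genes), with 2 under it unadjusted (9.18%). Gabrb2 gave -0.40 ± 0.16 (adjusted p = 0.479) and Gabra5 0.30 ± 0.12 (adjusted p = 0.479). Gabrb2 was lost without IS replicate 3 (-0.32) or ISch replicate 1 (-0.30), and Gabra5 without FIDch replicate 2 (0.24). Gabrd was called without FIDch replicate 4 (-0.25). The sign of the Gabrb2 interaction was negative in both sexes.

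The rest of the GABA system was read from a list of 36 genes in 5 groups, namely the other GABA-A subunits, the enzymes and transporters of GABA, GABA-B receptors, scaffold and trafficking proteins, and chloride transporters. In male FIDch against FID 1 of 28 tested genes fell and 0 rose, where 13.0% of all genes met the criterion in either direction. The 1 that fell was the gamma subunit gene Gabrg1, at 46.9 to 65.8 CPM in FIDch and 68.2 to 79.2 CPM in FID (log2 fold change -0.33 ± 0.091, adjusted p = 0.0916). Of the 4 other GABA-A subunits tested the median log2 fold change was -0.27, against 0.004 for the 7 enzymes and transporters of GABA and 0.003 for the 13 scaffold genes. That subunit median rests largely on low counts. Raw counts per library in these males were 20 to 48 for Gabrg3, 5 to 35 for Gabrr2 and 6 to 18 for Gabrr3.

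Markers of the cells of this tissue gave no single direction beside that male contrast. None of the 3 excitatory neuron, 3 tested dentate or 2 tested CA1 markers was called by edgeR. Called were Rgs14 (0.23 ± 0.056) and Mbp (0.29 ± 0.072) upward, and Aqp4 (-0.27 ± 0.088), Vip (-0.27 ± 0.12), Slc17a6 (-0.46 ± 0.19) and Drd1 (-0.47 ± 0.18) downward among others. The choroid plexus sum was 8.47 to 389 CPM in FID and 4.92 to 5.93 CPM in FIDch males. Without its highest library, FID replicate 4, the values were -0.44 for Gabrb2, -0.25 for Gabra4 and -0.21 for Gabra5, all still called. The other 3 FID males, at 8.47 to 18.4 CPM of these genes, remained above all FIDch males. The part of the choroid plexus genes and of the other markers in the values was not tested.

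**Figure D5:**
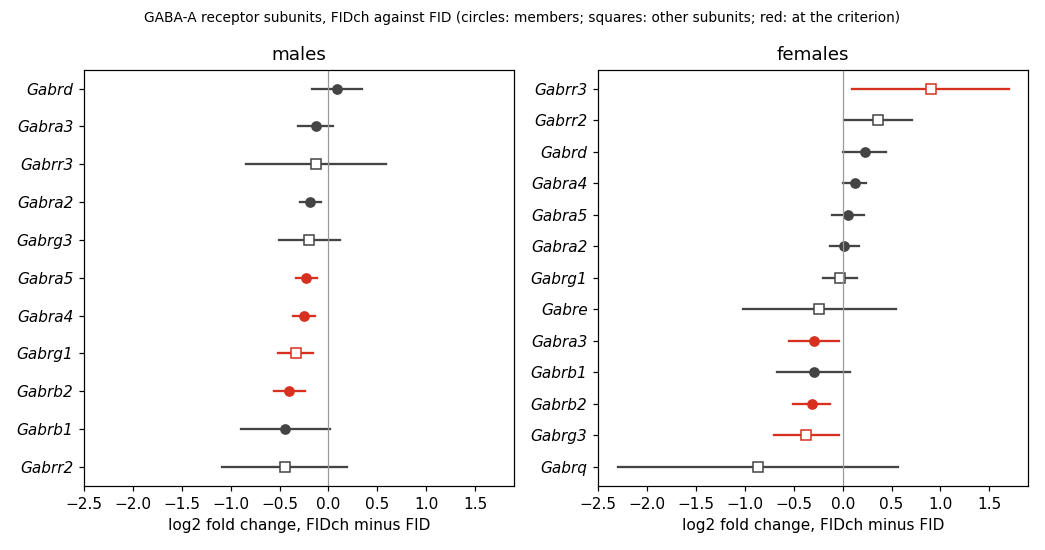
Log2 fold change (x axis) of the GABA-A subunit genes reported in FIDch against FID, males left and females right, with circles for the 7 genes described, squares for other subunits, bars for the approximate 95% interval and red for genes that met the criterion. All 4 red genes of the males lie below 0, while the females have red genes on both sides.

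Of the listed genes, male ISch against IS held Gabrg3 (0.68 ± 0.29, adjusted p = 0.463), 1 of 28 tested (8.06% of all genes). Male FID and FIDch against IS each held 0 of 28 by edgeR (4.62% and 6.12% of all genes). Before adjustment 0 and 3 of the 28 were under 0.05 (5.68% and 7.89% of all genes), the 3 being Nlgn2, Slc12a5 and Gphn, under the fold cutoff. In female FID against IS 2 of 29 rose and 0 fell (6.47% of all genes in either direction). They were Slc32a1, the transporter that loads GABA into vesicles (0.24 ± 0.050, adjusted p = 0.0782), and Gabrr2, a rho subunit known from the retina (0.35 ± 0.15, adjusted p = 0.416). In female ISch against IS 2 of 28 rose and 1 fell (10.3% of all genes in either direction). Gabrr2 rose by 1.15 ± 0.23 (adjusted p = 0.0276, with 48 to 65 raw counts per IS library), the transporter gene Slc6a13 rose by 0.43 ± 0.15 (adjusted p = 0.194), and Abat, which breaks GABA down, gave -0.22 ± 0.059 (adjusted p = 0.0932). In female FIDch against IS 2 of 30 rose, Gabrr2 (0.72 ± 0.18) and the anchoring gene Rdx (0.31 ± 0.066), and Abat fell (-0.32 ± 0.088), where 8.98% of all genes met the criterion. In female FIDch against FID 2 of 30 rose and 5 fell (12.7% of all genes in either direction). The largest changes were in Gabrr3 (0.90 ± 0.41, adjusted p = 0.276, from 6 to 28 raw counts in these 8 libraries), Gabrg3 (-0.37 ± 0.17, adjusted p = 0.275), Abat (-0.31 ± 0.089, adjusted p = 0.0964) and Slc32a1 (-0.25 ± 0.055, adjusted p = 0.0425).

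The genes whose log2 CPM over the libraries of a sex was most like the mean standardised profile of the 7 were, in males, Alcam (Pearson's r 0.94) and Nedd4 (0.91) out of 10279 genes with a mean of at least 50 counts. In females they were Neo1 (0.92), Smarca1 (0.90) and Oxr1 (0.90) out of 11514. The values describe 16 libraries per sex that differ in depth and diet, and carry no test.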

How the data were processed

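Hippocampal RNA of 32 rats was sequenced, and the authors deposited raw read counts per gene, as a table for each sex with Ensembl gene IDs and symbols, with no normalisation. The submitters' processing notes name FastQC, Trimmomatic, HISAT2, Subread's featureCounts and the genome build Rnor 6.0, and the study's methods name HISAT2 2.1.0. The strand setting is not given in the sources used here. Every row carried a gene ID (0 without), and 0 columns were left unused.

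Counts were analysed as deposited in R 4.3.3 with edgeR 4.0.16 (filterByExpr, TMM, quasi-likelihood F test), fitted across all genes for the 8 libraries of each pair of groups, as the study did, with Benjamini-Hochberg adjustment. The interaction used the 16 libraries of a sex, and the sex difference the 16 libraries of 2 diets in both sexes. The approximate 95% intervals are normal intervals from the fitted SE. Means were also tested by a 2-sided exact permutation test, which with 4 against 4 cannot go below 0.029, and correlations by 100000 permutations. The steps were tested on simulated data. Named were the 7 genes, per pairwise comparison at most 4 genes of the listed GABA system that met the criterion, those with the largest change, and the genes most like the 7 (3 in females, the first 2 in males). Some genes that this rule or the list of the GABA system would name are not reported here, and the counts over the list leave them out. The members and lists were chosen with earlier results of these data known. Alternatives were RLE size factors, library size alone, DESeq2 1.42.0, a likelihood ratio test, no filter on low counts, 4 groups in one fit, a replicate block, an adjusted p cutoff and leaving out each library. Promoters came from RefSeq on GRCr8, a later build than that of the counts, and were matched by symbol for 6 of 7 genes.

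Replicates of a group differed by more than counting noise, with a chi-square per gene of 2.02 to 25.2 over 48 pairs. The labels call the samples biological replicates. P-values measure the spread between these rats.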

Additional observations from a re-analysis of the deposited data

Results flagged for a closer look

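In 4 of the 56 groups of 4 rats (7 genes in 8 groups) a single rat lay far from the other 3 by Dixon's gap test, and chance flags about 1 in 20 groups. They were Gabrb2 in male IS replicate 1, at 29.3 CPM, Gabrb2 in male FIDch replicate 1, at 46.21 CPM, Gabra3 in female FIDch replicate 4, at 24.08 CPM, and Gabrb1 in the same female rat, at 17.18 CPM. That female library also held 1052 CPM of the 3 CA1 markers against 483 to 678 CPM in the other 3 FIDch females. Its column name has a lower number than theirs. Female ISch replicate 1, at 718 CPM of these markers, has a higher number than ISch replicates 2 to 4, at 890 to 992 CPM. All IS and FID females have low numbers. The meaning of the numbers is not given, and they are unequally split between female ISch and FIDch. The part of the CA1 markers and of this numbering in the values was not tested.

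The effect of diet differed between the sexes for Gabra4 and Gabrd only at an unadjusted p, by edgeR's test of the difference. Female minus male log2 fold changes in FIDch against IS were 0.3597 for Gabra4 (adjusted p = 0.0756) and 0.4050 for Gabrd (adjusted p = 0.346). In ISch against IS they were 0.2807 (adjusted p = 0.0503) and 0.4709 (adjusted p = 0.103). Of all genes 12.9% and 14.2% met the criterion in these 2 contrasts. Sex and sequencing batch cannot be told apart in these differences.

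The effect of choline differed between iron-deficient and iron-sufficient rats of a sex only at an unadjusted p, by edgeR's interaction test. In males the log2 differences were -0.8752 for Gabrb1 (adjusted p = 0.274), -0.6820 for Gabrb2 (adjusted p = 0.204) and -0.3376 for Gabra2 (adjusted p = 0.244). In females they were -0.4049 for Gabrb2 and 0.3034 for Gabra5 (adjusted p = 0.479 for both). Of all genes 14.4% in males and 7.33% in females met the criterion. The call was lost in 8 of 22 alternatives for male Gabrb1, 2 for female Gabrb2 and 1 for female Gabra5.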

How the results depend on the processing

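Of 1220 alternative values for 74 single-gene results, 1117 kept their direction and their side of the criterion, 42 newly met it, 36 lost it and 25 turned sign. The number of the 7 genes at the criterion moved as follows. In male FID against IS (1) it was 2 with a likelihood ratio test, 3 with all genes, 2 with 4 groups in one fit and 3 with the replicate block. With all genes it was 1 in male ISch against IS (0), and with 4 groups in one fit 0 in female FID against IS (1). At an adjusted p under 0.05 it was 1 in male FIDch against FID and 0 in male FID against IS, both interactions, and female FID against IS, FIDch against IS and FIDch against FID. Leaving out single libraries gave 0 to 3 (male FID against IS), 0 to 2 (male FIDch against IS, male ISch against IS), 3 to 4 (male FIDch against FID), 2 to 4 (male interaction), 0 to 1 (female FID against IS), 1 to 2 (female FIDch against IS), 2 to 5 (female ISch against IS) and 1 to 3 (female FIDch against FID, female interaction). For the difference between the sexes it gave 0 to 1 for FID, 1 to 2 for FIDch and 2 to 5 for ISch, each against IS. Those alternatives for the sex difference were chosen after seeing the data. The causes were not tested.

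The replicate numbers did not pair the rats. Over 32 correlations of same-numbered deviations the range was -0.15 to 0.22, with 1 over 0.1, and 5 matched best with their own number. Beyond male FID against IS the block changed the count in female FIDch against FID, to 3 from 2.

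Signs turned in these cases. Gabrb2 in male FIDch against IS (-0.0016) was 0.006 by library size alone, 0.046 with the replicate block and -0.210 to 0.089 without single libraries. Leaving out single libraries also gave log2 differences of -0.090 to 0.084 for Gabra2, -0.004 to 0.162 for Gabra3, -0.082 to 0.317 for Gabrb1 (0.159 with all libraries) and -0.139 to 0.056 for Gabrd in male FIDch against IS, -0.159 to 0.049 for Gabrb1 in female FID against IS, -0.021 to 0.224 for Gabra3 (0.117) and -0.081 to 0.059 for Gabra5 in female FIDch against IS, -0.009 to 0.159 for Gabrb2 in female ISch against IS, -0.030 to 0.096 for Gabra2 and -0.006 to 0.143 for Gabra5 in female FIDch against FID, and -0.202 to 0.087 for Gabrb1 and -0.268 to 0.194 for Gabra3 (-0.139) in female iron by choline interaction. The lowest raw count of the 7 genes was 72 (Gabrd, in the shallowest male library).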
